A study of Mus musculus with 2 samples.

Results

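This account follows 10 genes that build and decorate the sugar chains of mucus, of the 17829 genes in a single-cell count table of mouse colonic epithelium. They were taken as a named list, chosen with earlier results of these data known. It held the chain-starting transferases Galnt12 and Galnt3, and the core enzymes C1galt1, its chaperone C1galt1c1 and B3gnt6. It also held the branching enzyme Gcnt3, the capping enzymes Fut2 and St6galnac1, and the sulfotransferases Gal3st2b and Gal3st2c. Live EpCAM+ cells of the colon of C57BL/6 mice, sorted by flow cytometry, gave 1 droplet library of genotype Mettl14 WT and 1 of genotype Mettl14 KO. The Mettl14 protein is part of the complex that writes m6A, a methyl mark on RNA. A time of 2 weeks is stated for the cells with no starting event, and no treatment is named. The deleted allele, what drives the deletion, and the age and number of animals per library are not given in the sources used here.

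Mucus of the colon is a gel of Muc2, a protein whose serine and threonine residues carry dense O-linked sugars. Enzymes of the GALNT family attach the first N-acetylgalactosamine. The sugar is then extended to core 1 by C1galt1, which needs its chaperone C1galt1c1 (Cosmc), or to core 3 by B3gnt6, which marks the intestine. Gcnt3 adds a branch, and the chains end in fucose, sialic acid or sulfate. These additions take place in the Golgi, above all in goblet cells, and they set how well the gel resists bacterial breakdown.

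In all, 4210 WT cells gave 60205658 UMIs (counted RNA molecules), a median of 12094 per cell, and 3653 KO cells gave 37635762, a median of 9119. The libraries shared 2 cell barcodes. Levels are counts per 1000000 UMIs (CPM), summed over cells. Differences are log2 ratios of the KO level to the WT level. In brackets, each is followed by its exact 95% interval, which covers counting error only. With 1 library per genotype there is no replicate and no test, so every difference is between these libraries, not between genotypes. A gene was counted as measured if both libraries together had 50 UMIs or more. It was called higher or lower where it differed at least 1.5-fold and its interval excluded equal levels. Mettl14 itself stood at 10.5 CPM in the WT and 5.34 CPM in the KO library, a log2 difference of -0.97 (-1.21 to -0.74). Whether these 3' tags lie inside the deleted part is not given in the sources used here. Fewer cells of a type and less RNA per cell cannot be told apart in sums over all cells, so the authors' 7 clusters were also read one by one. Marker genes put goblet-like cells in clusters 1 and 2, cycling-like cells in cluster 3, colonocyte-like cells in cluster 4 and enteroendocrine-like cells in cluster 5. Cluster 0 was led by pancreatic enzyme genes, found mostly in its WT cells, and scored next for stem markers. Relative to the other clusters, cluster 6 scored almost equally for tuft and stromal markers. Its stromal markers summed to 8776 CPM in the WT and 5792 CPM in the KO library, and its tuft markers to 400 and 41.8 CPM. Both clusters are called by number. Cluster 6, with 117 WT and 31 KO cells, was left out of comparisons within clusters.

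Over all cells, 5 of the 9 measured genes were higher in the KO library, 1 was lower and 3 were neither. The same rule called 16.7% of 13334 measured genes higher and 16.2% lower. The median of the 9 was 0.59, against -0.04 for all measured genes. Since the list was chosen with earlier results of these data known, such counts and medians describe it and test nothing. At 2-fold, 0 of the 9 were called higher and 0 lower, where all genes gave 8.22% and 8.27%. The 10 genes together stood at 615 CPM in the WT and 928 CPM in the KO library (0.59, 0.57 to 0.62), while Muc2, their main substrate in the colon, stood at 2049 and 1860 CPM (-0.14, -0.15 to -0.13). The largest differences upward were those of Gal3st2b and C1galt1, and Gal3st2c and B3gnt6 lay on the opposite side. Cluster 1 held 14.4% of all UMIs in the WT and 22.8% in the KO library. Within that cluster Gal3st2b differed by 0.25 (0.07 to 0.42) and was not called. The part of cluster size in the values over all cells was not tested.

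**Figure D1:**
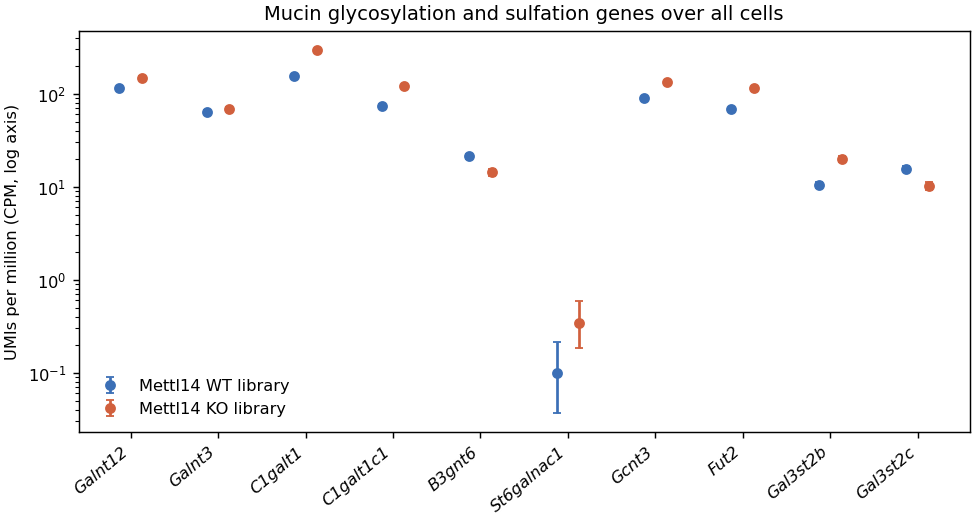
Level of each of the 10 genes over all cells of the Mettl14 WT and Mettl14 KO libraries, in CPM on a log axis, with exact 95% Poisson intervals that are often smaller than the points. C1galt1 stood at 156 and 294 CPM, Gal3st2c at 15.6 and 10.2 CPM, and St6galnac1 lay far below the rest.

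Chain initiation was represented by Galnt12 and Galnt3, both peptide N-acetylgalactosaminyltransferases. Galnt12 (chromosome 4, 47091909 to 47123070, plus strand, GRCm38) stood at 115 CPM in the WT and 149 CPM in the KO library, a difference of 0.38 (0.33 to 0.43) that stayed under the 1.5-fold line. Galnt3 (chromosome 2, 66082766 to 66124994, minus strand) stood at 64.2 and 69.2 CPM, with a difference of 0.11 (0.04 to 0.18) that became -0.04 when every cell was thinned to 3000 UMIs. Both genes were highest in cluster 2 and next highest in cluster 1 in both libraries. In the KO library the cluster 2 and cluster 1 levels of Galnt12, 248 CPM (235 to 261) and 235 CPM (225 to 246), did not differ beyond their intervals. In cluster 2 Galnt3 stood at 171 CPM in the WT and 121 CPM in the KO library (-0.50, -0.63 to -0.37), and in cluster 1 at 75.4 and 94.1 CPM (0.32, 0.17 to 0.47). Galnt12 was called higher only in clusters 0 and 4, at 77.1 against 29.7 CPM (1.38, 1.18 to 1.57) and 77.4 against 38.1 CPM (1.02, 0.81 to 1.23). Cells with at most 10% mitochondrial UMIs gave 0.55 in cluster 4, under the line. Its difference between clusters was not tested.

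C1galt1 (chromosome 6, 7844842 to 7875687, plus strand), the galactosyltransferase that makes core 1, had 9393 UMIs in the WT and 11056 in the KO library. It stood at 156 and 294 CPM, 1.88-fold higher in the KO library (0.91, 0.87 to 0.95). It was called higher in each of the 6 clusters compared, and no other gene of the list was. The levels in the WT and KO library were 46.5 and 106 CPM in cluster 0 (1.19, 1.04 to 1.35), 244 and 502 CPM in cluster 1 (1.04, 0.97 to 1.12) and 384 and 585 CPM in cluster 2 (0.61, 0.54 to 0.68). Cluster 3 had 104 and 162 CPM (0.64, 0.55 to 0.74), cluster 4 had 86.8 and 145 CPM (0.74, 0.59 to 0.88), and cluster 5 had 161 and 302 CPM (0.91, 0.65 to 1.16). In clusters 2 and 3 the value lay just past the line, and 3 of 5 alternative settings in each left it below. Cells with a C1galt1 UMI made up 63.4% of WT and 72.0% of KO cells, and 32.1% and 46.7% once each cell was thinned to 3000 UMIs, which left out 172 WT and 97 KO cells.

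C1galt1c1 (chromosome X, 38630785 to 38635087, minus strand), which encodes the chaperone without which core 1 is not made, stood at 74.5 CPM in the WT and 120.5 CPM in the KO library (0.69, 0.63 to 0.75). The chaperone and its client had like differences in goblet-like cluster 1 but not in cluster 2, a contrast that was not tested. In cluster 1 C1galt1c1 stood at 112 and 229 CPM (1.03, 0.92 to 1.14), close to the difference of C1galt1. In cluster 2 it stood at 198 and 216 CPM (0.13, 0.02 to 0.23) and was not called, and thinned cells gave 44.6% and 44.5% of cells with a UMI. It was highest in cluster 2 of the WT library, and in cluster 1 of the KO library, where the levels of both clusters overlapped in their intervals. In cluster 4 its difference of 0.68 was called, but thinned cells gave 0.45.

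B3gnt6 (chromosome 7, 98192417 to 98199481, minus strand), the core 3 synthase, was concentrated in 1 goblet-like cluster. Cluster 2 held 77.5% of its UMIs in the WT and 65.7% in the KO library, against 16.6% and 14.8% of all UMIs. B3gnt6 is among the 10 leading genes of that cluster, so this is a description of the cluster. Over all cells it had 1279 UMIs in the WT and 537 in the KO library, or 21.2 and 14.3 CPM. Its difference of -0.57 (-0.72 to -0.43) lay just inside the 1.5-fold line. Of 12 alternative settings, 8 put it past that line, and the lowest, -1.05, came from equal weight for each cluster. In cluster 2 it stood at 98.9 and 63.3 CPM (-0.64, -0.82 to -0.47), in cluster 3 at 6.24 and 2.75 CPM (-1.18, -1.84 to -0.57), and in cluster 1 at 10.1 and 16.0 CPM (0.67, 0.27 to 1.07). The cluster 1 value ran from 0.32 with cells thinned to 3000 UMIs, where the call was lost, to 1.14 with at most 10% mitochondrial UMIs. B3gnt6 thus lay lower in the KO library where it was most abundant and higher in the other goblet-like cluster. In thinned cells, 23.0% of WT and 13.2% of KO cells of cluster 2 had a B3gnt6 UMI, and 2.54% and 3.34% of those of cluster 1. In colonocyte-like cluster 4 the WT share was 1.25%, at a median of 12288.5 UMIs per cell against 12674.5 in cluster 2.

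Gcnt3 (chromosome 9, 70031496 to 70038088, minus strand), which adds the branch of cores 2 and 4, stood at 89.0 CPM in the WT and 134 CPM in the KO library. The difference of 0.59 (0.54 to 0.65) was just past the 1.5-fold line, and 6 of 12 alternatives left it below, down to 0.42 in cells that had a Y-linked UMI but no Xist UMI. Cluster 2 was the highest in both libraries, at 263 and 347 CPM (0.40, 0.31 to 0.48), followed by cluster 1 at 178 and 229 CPM (0.36, 0.26 to 0.46). Neither goblet-like cluster reached the line. In cluster 0 the levels were 16.2 and 40.6 CPM (1.33, 1.07 to 1.59). Clusters 3 and 5 were called at 0.62 (0.46 to 0.78) and 0.60 (0.22 to 0.98), but cells with at most 10% mitochondrial UMIs gave 0.35 in cluster 3 and -0.45 in cluster 5.

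Fut2 (chromosome 7, 45648591 to 45666394, minus strand), the fucosyltransferase behind the secretor blood group antigens in the gut, stood at 68.8 CPM in the WT and 116 CPM in the KO library (0.75, 0.69 to 0.81). Among the clusters compared, its differences were largest in clusters 0 and 1. Cluster 1 had 101 and 213 CPM (1.07, 0.96 to 1.19), and cluster 0 had 20.2 and 43.2 CPM (1.10, 0.85 to 1.34). In cluster 2, the highest for this gene in both libraries, the levels were 188 and 230 CPM (0.29, 0.19 to 0.40). Its calls in clusters 4 and 5 were lost in 1 or more settings, which gave values down to 0.35 and 0.55. Where cells were limited to those with an Xist UMI but no Y-linked one, 1733 WT and 1783 KO cells, the difference was 0.88. The 1540 WT and 996 KO cells with the reverse gave 0.40, under the line. C1galt1 stood at 0.85 and 0.88 in the same cells.

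St6galnac1 (chromosome 11, 116765025 to 116775507, minus strand), which adds sialic acid to the first sugar, was barely detected. Its counts were 6 and 13 UMIs in the WT and KO libraries, 0.0997 and 0.345 CPM, found in 0.143% and 0.356% of cells. It did not reach the 50 UMIs asked of a measured gene and was not called.

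**Figure D2:**
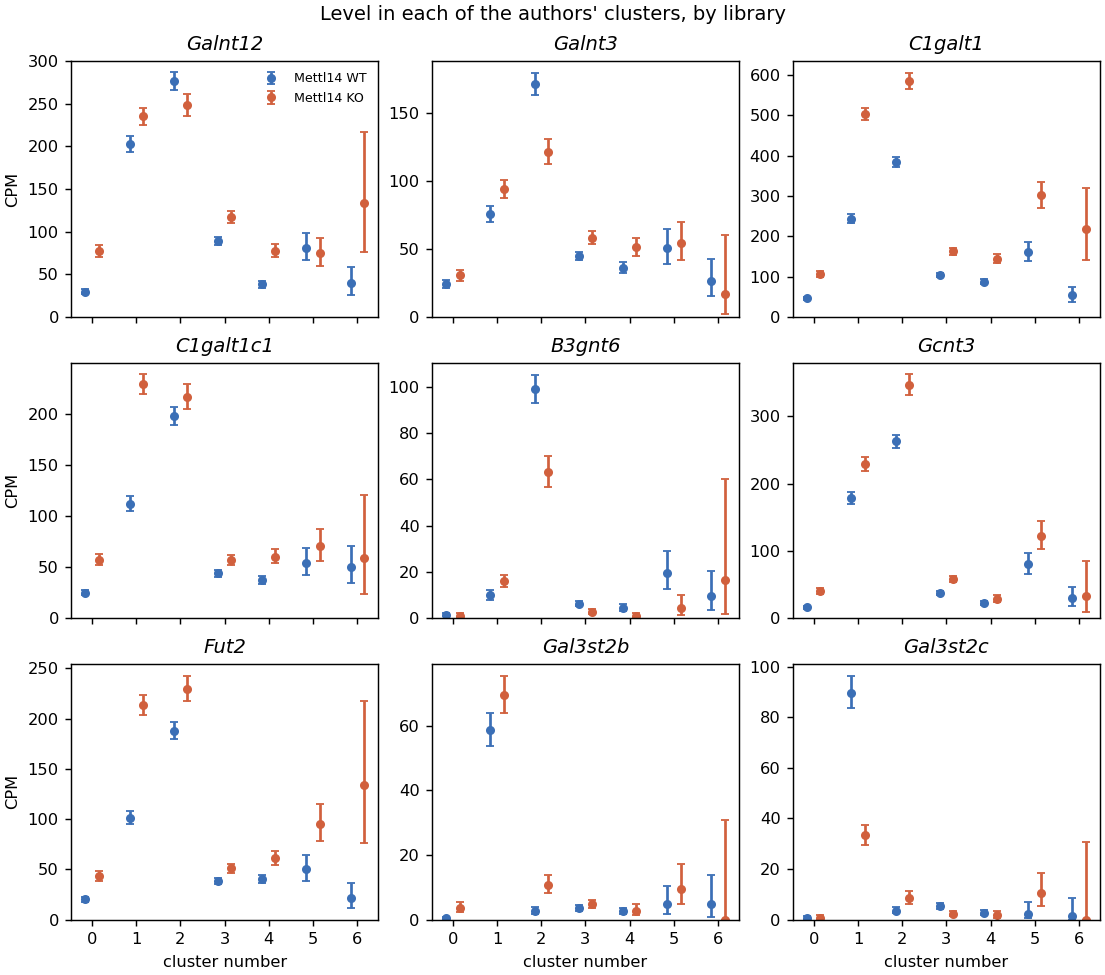
Level of the 9 measured genes in each of the authors' 7 clusters, in CPM on a linear axis starting at 0, for the Mettl14 WT and KO libraries with exact 95% Poisson intervals. Clusters 1 and 2 are highest for most genes, B3gnt6 peaks in cluster 2 (98.9 and 63.3 CPM) and Gal3st2b and Gal3st2c peak in cluster 1.

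Gal3st2b and Gal3st2c encode galactose 3-O-sulfotransferases, which put sulfate on terminal galactose. They lie in a row with Gal3st2, which is not on the list, on chromosome 1, all on the plus strand of GRCm38. Gal3st2 spans 93861306 to 93876494, Gal3st2b 93918311 to 93942650, and Gal3st2c 93990509 to 94017147. Of the 31-base words in the longest coding transcript of Gal3st2b, 83.8% also occur in the coding transcripts of Gal3st2. For the words in its last 500 bases, where 3' tags arise, the share is 85.5%. For these genes the assignment of reads is therefore uncertain. The last 500 bases of Gal3st2c share 0% of their words with either, so tags from that end are distinct. Over its whole longest coding transcript, 12.5% of the words also occur in Gal3st2b, and some occur in Gal3st2. Whether tags of Gal3st2c also arose outside its last 500 bases was not tested. RefSeq promoter windows of GRCm38.p6, from 250 bases before the start to 50 after it, were found for 4 of the 10 genes and for Gal3st2. Those of the 3 neighbours are shown because their transcripts differed in opposite directions between the libraries. Capitals mark matches on either strand. One word searched was TATAAA, the TATA box, whose matches here lie on the other strand and so read reversed and complemented. Another was CAGCTG, an E-box that many helix-loop-helix factors bind. A related E-box with a different centre, CATCTG, and a word bound by GATA factors, GATAAG, completed the search.
Gal3st2, chr1:93861094-93861393, plus strand: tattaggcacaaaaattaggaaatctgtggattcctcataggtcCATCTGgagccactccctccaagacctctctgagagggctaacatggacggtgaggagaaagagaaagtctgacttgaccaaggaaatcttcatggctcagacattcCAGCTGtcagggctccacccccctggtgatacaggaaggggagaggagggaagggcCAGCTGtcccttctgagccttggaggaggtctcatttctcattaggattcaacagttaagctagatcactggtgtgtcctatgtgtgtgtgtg
Gal3st2b, chr1:93918187-93918486, plus strand: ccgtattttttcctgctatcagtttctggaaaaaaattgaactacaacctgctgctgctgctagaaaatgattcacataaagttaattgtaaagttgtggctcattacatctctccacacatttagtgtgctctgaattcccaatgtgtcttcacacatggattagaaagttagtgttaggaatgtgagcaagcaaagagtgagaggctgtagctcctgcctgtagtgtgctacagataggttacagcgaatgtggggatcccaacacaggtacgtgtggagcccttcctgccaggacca
Gal3st2c, chr1:93990255-93990554, plus strand: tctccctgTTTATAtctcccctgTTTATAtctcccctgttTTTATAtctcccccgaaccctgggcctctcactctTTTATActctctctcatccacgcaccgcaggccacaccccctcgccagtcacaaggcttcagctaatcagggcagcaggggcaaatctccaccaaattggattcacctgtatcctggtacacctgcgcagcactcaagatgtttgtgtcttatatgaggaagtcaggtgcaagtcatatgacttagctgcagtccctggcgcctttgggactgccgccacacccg

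In gapped alignments the 3 windows had 50.7% to 52% identical bases, with shared runs of at most 8 bases, while the windows of the unrelated genes Galnt3 and C1galt1 gave 58% and a run of 12. Gal3st2c held 4 matches of TATAAA, all far from the start. Gal3st2 held 2 of CAGCTG and 1 of CATCTG, and Gal3st2b held none of the 4 words. Of 32851 promoter windows of the same length, 13.6% held TATAAA, 16.3% CAGCTG, 17.2% CATCTG and 7.44% GATAAG. These matches describe the letters and are not binding sites.

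Both sulfotransferase genes belonged to goblet-like cluster 1, of which they and Gal3st2 are leading genes. Cluster 1 held 79.97% of WT and 78.9% of KO UMIs of Gal3st2b, and 82.5% and 74.2% of those of Gal3st2c. Of all UMIs it held 14.4% in the WT and 22.8% in the KO library. Over all cells Gal3st2b had 634 UMIs in the WT and 754 in the KO library, or 10.5 and 20.03 CPM (0.93, 0.77 to 1.08). Gal3st2c had 941 and 384 UMIs, or 15.6 and 10.2 CPM (-0.62, -0.79 to -0.44). Gal3st2 stood at 9.10 and 19.98 CPM (1.13, 0.97 to 1.30). The neighbours thus differed in opposite directions between these libraries.

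In cluster 1 alone, Gal3st2c stood at 89.7 CPM in the WT and 33.3 CPM in the KO library, 2.70-fold lower (-1.43, -1.63 to -1.23). Of its cells, 55.1% in the WT and 23.2% in the KO library had a Gal3st2c UMI, and 20.8% and 7.22% when thinned. Gal3st2b in the same cells stood at 58.6 and 69.5 CPM (0.25, 0.07 to 0.42) and Gal3st2 at 49.5 and 66.0 CPM (0.42, 0.23 to 0.60), neither of them called. The summed UMIs of the 3 neighbours stood at 198 and 169 CPM (-0.23, -0.33 to -0.13), so what differed was mainly their makeup. Gal3st2c made up 45.4% (43.0 to 47.7) of 1711 UMIs in the WT library and 19.7% (17.7 to 21.9) of 1445 in the KO library. These shares are of 3' tags, not corrected for any difference between genes in how they are captured. They take the reads as assigned, and for Gal3st2c only tags from its last 500 bases are known to be distinct.

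**Figure D3:**
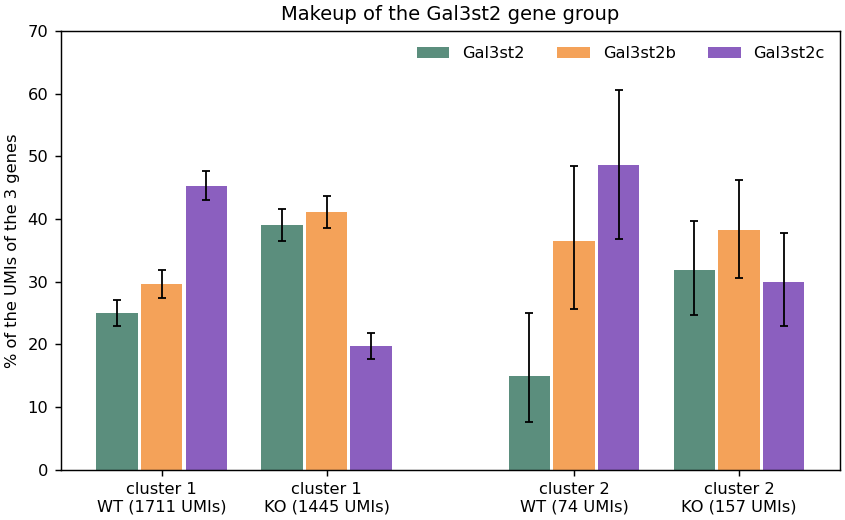
Share of each of Gal3st2, Gal3st2b and Gal3st2c in the UMIs of all 3 genes, in percent, in clusters 1 and 2 of each library, with exact 95% Clopper-Pearson intervals. In cluster 1 the Gal3st2c bar is 45.4% in the WT and 19.7% in the KO library, while in cluster 2, with 74 and 157 UMIs, the intervals are wide.

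In cluster 2 all 3 genes were higher in the KO library, at low levels, and of these Gal3st2c alone had the opposite sign in cluster 1. Gal3st2b stood at 2.69 CPM in the WT and 10.8 CPM in the KO library (1.998, 1.32 to 2.71), Gal3st2c at 3.59 and 8.43 CPM (1.23, 0.57 to 1.90) and Gal3st2 at 1.10 and 8.97 CPM (3.03, 2.07 to 4.12). For Gal3st2c these are 36 and 47 UMIs, and in cells with at most 10% mitochondrial UMIs the difference was 0.27. In cluster 3 Gal3st2c was lower again, at 5.23 and 2.45 CPM (-1.09, -1.80 to -0.44). With equal weight for each cluster, its difference over all cells was 0.07. It was -0.17 in the cells with Xist but no Y-linked UMI and -0.96 in those with the reverse. Without the 2 goblet-like clusters few UMIs of either gene remained: clusters 1 and 2 held 86.3% of Gal3st2c in the WT and 86.5% in the KO library.

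The goblet-like clusters lay further apart in the WT than in the KO library for 8 of the 9 measured genes. The same count over all genes was not made, so this is not shown to be particular to the list. Muc2, outside the list, did likewise, with cluster 2 above cluster 1 by 3.40-fold in the WT and 1.68-fold in the KO library. The level in cluster 1 over that in cluster 2 was 24.97-fold in the WT and 3.95-fold in the KO library for Gal3st2c, and 21.8-fold and 6.46-fold for Gal3st2b. For B3gnt6, cluster 2 stood 9.83-fold above cluster 1 in the WT and 3.96-fold in the KO library. For Galnt3 these values were 2.27-fold and 1.29-fold, and for Fut2 1.85-fold and 1.08-fold. Gcnt3 was the exception, at 1.48-fold and 1.52-fold. These changes between the libraries were not tested. Goblet markers outside the list differed in both directions in cluster 2, with 5 of 9 above 0 and 4 below. Zg16, a lectin gene that leads cluster 1, stood at 25.3 CPM in the WT and 623 CPM in the KO library, and Fcgbp, a mucus protein gene, at 166 and 1074 CPM. Spink4, a secreted goblet product, stood at 14589 and 2978 CPM (-2.29, -2.32 to -2.27), and Spdef, Muc2 and Agr2 were at -0.56, -0.52 and -0.18. Their part in the values of cluster 2 was not tested.

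**Figure D4:**
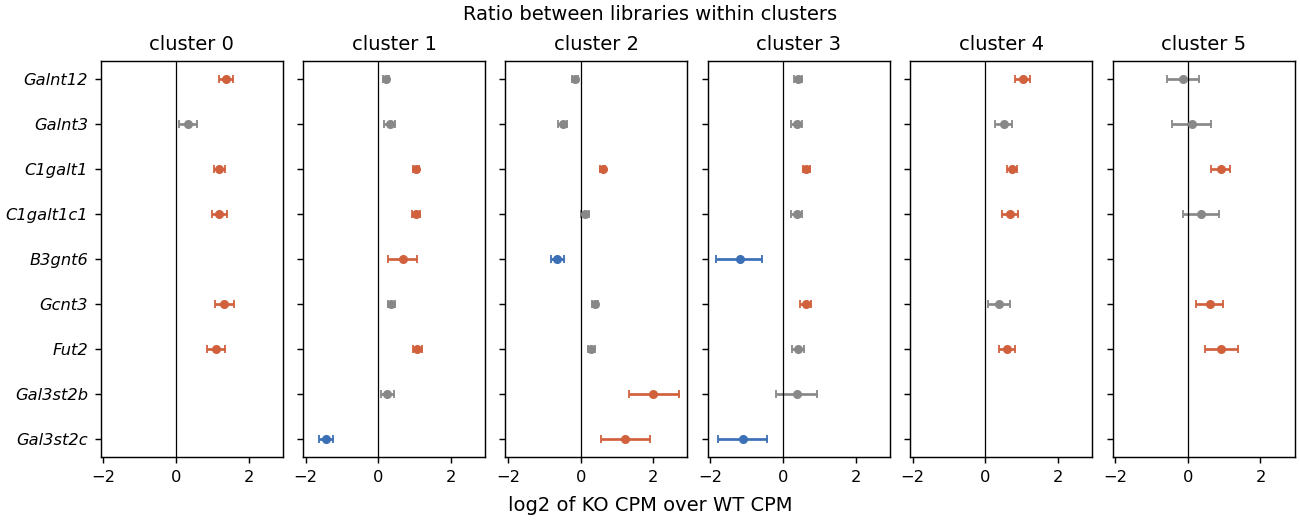
Log2 of KO CPM over WT CPM for the measured genes in clusters 0 to 5, with exact 95% intervals; red points were called higher in the KO library, blue points lower and grey points neither. C1galt1 is called higher in all 6 panels, while B3gnt6 and Gal3st2c lie on opposite sides of 0 in clusters 1 and 2.

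By cluster, the calls were as follows. Cluster 1 had 4 of 9 measured genes higher and 1 lower, where 13.1% of all genes were called higher and 16.8% lower. In cluster 2, 3 of 9 were higher and 1 lower, against 14.4% and 16.7% of all genes. In cluster 3, 2 of 9 were higher and 2 lower, against 17.5% and 11.7%. Cluster 0 had 5 of 6 higher and 0 lower, against 19.9% and 12.9%. Cluster 4 had 4 of 6 and 0, against 16% and 12.7%, and cluster 5 had 3 of 6 and 0, against 14.9% and 9.76%. Genes under 50 UMIs in a cluster were not counted, in either direction. B3gnt6 had 44 WT and 4 KO UMIs in cluster 4, and 25 and 5 in cluster 5. Upward, Gal3st2b had 5 WT and 26 KO UMIs in cluster 0, and Gal3st2c 3 and 12 in cluster 5. The median difference of the measured genes ran from 0.29 in cluster 2 to 1.20 in cluster 0, and that of all measured genes from -0.12 to 0.03 over these clusters. In cluster 3 the share of members called was thus not far from that of all genes in the upward direction.

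The summed level of 9 goblet markers, all detected in both libraries, moved in part with these values. It was 1232 CPM in the WT and 2367 CPM in the KO library in cluster 0, 33149 and 43813 CPM in cluster 1, and 40765 and 37942 CPM in cluster 2. In clusters 3, 4 and 5 it was 6612 and 5152, 3532 and 3768, and 6651 and 7181 CPM. The single markers did not move together: in cluster 0, Tff3 stood at 111 and 893 CPM while Zg16 stood at 136 and 80.6 CPM. Cluster 0 also held the pancreatic enzyme transcripts of the WT library, at 7519 CPM against 108 CPM over 14 such genes. Without the cells rich in them, which kept 4177 WT and 3653 KO cells, Galnt12 in cluster 0 stood at 1.34 and C1galt1c1 at 1.20. The part of the marker levels in the differences was not tested.

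The load of enzyme transcripts per substrate transcript was read as UMIs of the 10 genes per 1000 Muc2 UMIs. In cluster 1 this was 434 in the WT and 463 in the KO library (0.09, 0.05 to 0.13). In cluster 2 it was 188 and 311 (0.73, 0.69 to 0.76). In cluster 1 Muc2 itself was higher in the KO library, at 2471 and 3506 CPM, and in cluster 2 lower, at 8410 and 5875 CPM. Per Muc2 UMI, C1galt1 in cluster 2 stood at 45.6 and 99.6 per 1000 (1.13, 1.06 to 1.19). B3gnt6 there stood at 11.8 and 10.8 per 1000 (-0.13, -0.31 to 0.05), a difference not detectable at this depth. Gal3st2c in cluster 1 lay further apart on this scale, at 36.3 and 9.49 per 1000 (-1.94, -2.14 to -1.74). The choice of denominator decides the value in cluster 2: per Fcgbp UMI the 10 genes stood at -2.49.

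Cells were also grouped by Muc2 UMIs after thinning to 3000, by limits chosen after seeing the data. The summed level of the 10 genes was higher at each step of Muc2 content in both libraries, from 229 CPM in WT cells with 0 Muc2 UMIs to 2082 CPM in those with 30 or more, and from 387 to 2336 CPM in KO cells. At 3 to 9 Muc2 UMIs it was 1128 CPM (1070 to 1188) in 418 WT cells and 1607 CPM (1539 to 1677) in 438 KO cells. C1galt1 in these cells stood at 281 and 524 CPM, whereas at 30 or more its levels of 505 CPM (456 to 557) and 595 CPM (525 to 673) overlapped in their intervals. B3gnt6 was concentrated at the top of the scale, at 178 CPM (149 to 210) in WT and 94.3 CPM (67.6 to 128) in KO cells with 30 or more. The sulfotransferase genes peaked in the middle. Gal3st2c reached 65.4 CPM (52.0 to 81.2) in WT cells with 3 to 9 Muc2 UMIs and 25.1 CPM (17.3 to 35.3) in KO cells. Gal3st2b reached 45.5 and 46.4 CPM in those cells, but 14.0 CPM (8.44 to 21.9) in WT and 55.4 CPM (44.0 to 69.0) in KO cells with 10 to 29.

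**Figure D5:**
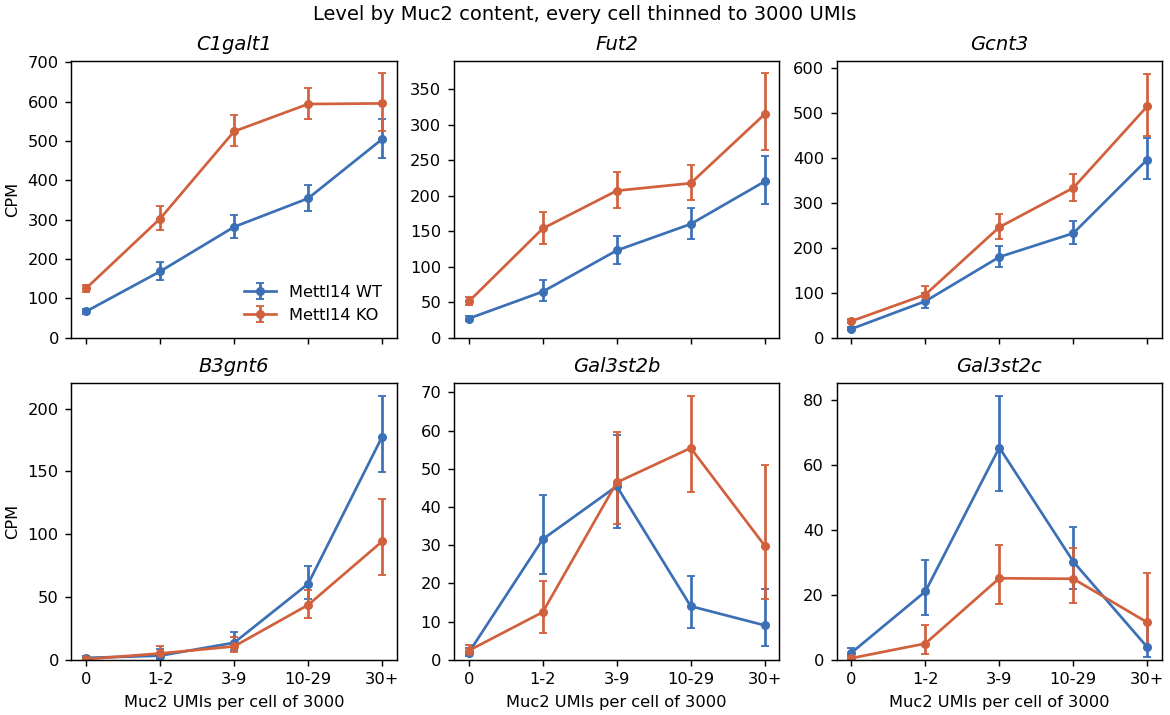
Level of 6 of the genes in cells grouped by Muc2 UMIs after every cell was thinned to 3000 UMIs, in CPM on linear axes, with exact 95% Poisson intervals for each library. C1galt1, Fut2 and Gcnt3 increase with Muc2 content, B3gnt6 is high at 30 or more (178 and 94.3 CPM), and Gal3st2c peaks at 3 to 9 in WT cells (65.4 CPM).

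Other genes of the pathway were taken from lists drawn up by function. These lists were not limited to enzymes that act on mucins, so their counts are not values for mucin sugars alone. Of 9 measured further GALNT genes, 2 were higher, 2 lower and 5 neither, with a median of -0.11. Galnt1 stood at 62.6 CPM in the WT and 102 CPM in the KO library (0.70, 0.64 to 0.77), and Galnt6 at 30.7 and 13.2 CPM (-1.21, -1.36 to -1.07). Core branching and chain extension had 9 of 18 higher, 1 lower and 8 neither, with a median of 0.53. Among these, B3galt4, known for its part in glycolipid synthesis, stood at 5.86 and 24.1 CPM (2.04, 1.86 to 2.22), and Gcnt2, the I-branching enzyme, at 0.814 and 3.40 CPM (2.06, 1.58 to 2.57). The more abundant B3gnt3, which builds extended core 1, stood at 55.7 and 111 CPM (0.997, 0.93 to 1.06). B3gnt3 was higher in each of the 6 clusters, from 0.65 in cluster 2 to 1.25 in cluster 4.

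Of the sulfation genes other than Gal3st2b and Gal3st2c, some had under 50 UMIs and were not called. Among them was Chst2, with 46 UMIs in the WT and 0 in the KO library. Of the 10 measured, 4 were higher and 0 lower, with a median of 0.56, beside 16.7% and 16.2% of all genes. These 4 were Gal3st2, the N-acetylglucosamine sulfotransferase gene Chst4 at 48.6 and 88.5 CPM (0.86, 0.79 to 0.94), Slc35b2, the Golgi carrier of the sulfate donor, at 52.1 and 110 CPM (1.08, 1.02 to 1.15), and Slc26a2, a sulfate transporter of the cell surface, at 76.5 and 151 CPM (0.98, 0.93 to 1.04).

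Fucosylation had 2 of 9 higher and 1 lower, with a median of 0.06, and sialylation 3 of 16 higher and 3 lower, with a median of -0.13. St6gal1 stood at 39.6 and 83.8 CPM (1.08, 1.005 to 1.16), and St3gal1, which caps core 1 with sialic acid, at 5.40 and 0.983 CPM (-2.46, -2.99 to -1.96). In the supply of sugar nucleotides 0 of 13 were higher and 2 lower, with a median of 0.02. They were Gfpt1, the entry enzyme of hexosamine synthesis, at 438 and 261 CPM (-0.75, -0.78 to -0.71), and Ugp2, which makes UDP-glucose, at 129 and 73.5 CPM (-0.81, -0.87 to -0.74). In cluster 2 Gfpt1 stood at 1294 and 523 CPM (-1.31, -1.36 to -1.25). Over the 6 enzyme and supply lists, 20 of 75 measured genes were higher and 9 lower, with a median of 0.07, beside the 16.7% and 16.2% of all genes given above.

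Over 14 profiles, 1 for each cluster and library, the summed level of the 10 genes was most like that of Pdia3 (Pearson r 0.975), Rap1gapos (0.971), Calr (0.971), Cog2 (0.971) and Rpn1 (0.968), on the log2(CPM + 1) scale. Pdia3 and Calr encode chaperones of glycoproteins in the endoplasmic reticulum, Rpn1 a subunit of the N-glycan transferase, and Cog2 a Golgi tethering subunit. Among the genes themselves, C1galt1 was most like Fut2 (r 0.973). Gal3st2b was most like Gal3st2 (0.952), the neighbour with which its read assignment is uncertain, and next like Gal3st2c (0.932). B3gnt6 was most like Muc2 (0.909) and least like Gal3st2 (0.01). These profiles share libraries and clusters, so the values are descriptions.

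All 10 longest coding transcripts in the GENCODE vM21 annotation of GRCm38 hold the word GGACT, the core of the best-known m6A consensus, as do 87.6% of 21877 coding genes. Their median was 1.29 per kilobase, against 1.01 (quartiles 0.56 and 1.504) for all coding genes. Gal3st2c had 13 in 9667 bases and Gal3st2b 5 in 2722 bases, while C1galt1 had 2 in 6092 bases. A match describes the letters and shows no methylation.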

How the data were processed

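The deposited matrix held UMI counts per gene and cell, whole numbers with no normalisation, and a second deposited table gave each cell's library and cluster number. Per the submitters' processing notes the authors used bcl2fastq and Cell Ranger with mm10. Versions, cell filters, the clustering method and the treatment of doublets are not given in the sources used here, and no doublets were removed. The members and gene lists were chosen with earlier results of these data known.

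CPM are counts summed over the cells compared and scaled by their sum over all genes. Intervals at 95% are exact Poisson for CPM, conditional binomial for ratios and Clopper-Pearson for shares, and cover counting error only, since the cells of a library are not replicates. Clusters under 50 cells in either library were not compared. From the other pathway lists, genes called over all cells could be named, up to 4 per list by the interval bound nearest 0. Chst2, which was not measured, was named beside them. Genes of like pattern were the 5 with the highest Pearson r among those with at least 500 UMIs, over profiles of at least 20 cells. A total of 26 alternatives was planned and 3 were added after seeing the data. Python 3.11.15, numpy 2.4.6, scipy 1.17.1 and pandas 2.3.3 were used, and the code was tested on simulated data.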

Additional observations from a re-analysis of the deposited data

Results flagged for a closer look

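B3gnt6, the core 3 synthase, was higher in the KO library in cluster 1, by a log2 difference of 0.67, and lower in clusters 2 and 3, at -0.64 and -1.18. Gal3st2c, the galactose sulfotransferase, stood at -1.43 in cluster 1, 1.23 in cluster 2 and -1.09 in cluster 3, so both genes were lower in cluster 3. In cluster 1 B3gnt6 stood at 0.32, under the 1.5-fold line, when cells were thinned to 3000 UMIs, and Gal3st2c in cluster 2 to 0.27 in cells with at most 10% mitochondrial UMIs. These results drew attention because the same comparison had opposite signs in different clusters of the same libraries. The difference between clusters was not tested, as each cluster has 1 library per genotype. Beside them, the goblet markers Zg16, Tff3, Fcgbp, Clca1 and Atoh1 were higher in cluster 2 of the KO library. Their differences were 4.62 (4.44 to 4.81), 2.84, 2.69 (2.61 to 2.77), 1.26 and 0.48. The goblet markers Spink4, Spdef, Muc2 and Agr2 were lower there, at -2.29, -0.56, -0.52 and -0.18. The part of these markers in the values was not tested.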

How the results depend on the processing

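No paired analysis was possible because each genotype has 1 library. Library differences from animal, sex, batch or preparation cannot be told apart from genotype, and depth was lower in the KO library. Among the values checked for a single member or for all genes, 275 stayed in place, 106 moved and 8 reversed, and among the counts and sums 95 stayed, 30 moved and 1 reversed. Where a mean of per-cell CPM or equal weight per cluster was used, calls rest on the fold alone. Scalings shifted all genes by -0.07, 0.02 and 0.01.

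Over all cells, the number of members lower in the KO library was 2 in place of 1 with totals free of mitochondrial, ribosomal and haemoglobin genes, with mean per-cell CPM, with at most 10% mitochondrial UMIs, without cells holding both Xist and Y-linked UMIs, with Y-linked UMIs and no Xist, and with cells thinned to 3000 UMIs. It was 0 with the 3 Gal3st2 genes summed. The number higher was 3 with Y-linked UMIs and no Xist, and at 2-fold it was 0 higher and 0 lower, beside 8.22% and 8.27% of all genes. For the other pathway genes 2-fold gave 9 higher and 3 lower. Gal3st2c reversed to 0.066 with equal weight for each cluster.

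Within clusters, summing the Gal3st2 genes left 0 lower in cluster 1 and 1 lower in cluster 3. With at most 10% mitochondrial UMIs, 1 was higher in cluster 2, 0 in cluster 3 and 1 in cluster 5, where Gcnt3 reversed to -0.45. At 2-fold, 0 were lower in cluster 2, and 0 were higher in cluster 3, 1 in cluster 4 and 0 in cluster 5. Without mitochondrial, ribosomal and haemoglobin genes, 0 were higher in cluster 3 and 2 in cluster 4. Thinning gave 0 lower in cluster 3, where fewer UMIs gave wider intervals, and 1 higher in cluster 5, as did mean per-cell CPM.

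For the 10 genes per Muc2 UMI, cluster 1 gave 0.28 per Fcgbp UMI, 0.19 per goblet marker UMI and 0.15 in cells with at least 10 Muc2 UMIs, against 0.09. Cluster 2 gave 0.31 per goblet marker UMI and reversed to -2.49 per Fcgbp UMI. On that last scale C1galt1 stood at -2.08, C1galt1c1 at -2.57, Gcnt3 at -2.29, Fut2 at -2.40, Gal3st2b at -0.70 and Gal3st2c at -1.46, because Fcgbp itself differed by 2.69 there. The cause of the other changes was not tested.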

Other observations

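Values by cluster of 3 other pathway genes, picked after their values were seen, were as follows. St6galnac4, a sialyltransferase of the same pathway, stood at 48.2 CPM in the WT and 11.2 CPM in the KO library in cluster 1 (-2.10, -2.44 to -1.78), but at 22.3 and 22.8 CPM in cluster 3 (0.03, -0.21 to 0.27). B3gnt7, which extends chains on sulfated glycans, stood at 144 and 118 CPM in cluster 1 (-0.28, -0.41 to -0.16) and at 10.2 and 36.8 CPM in cluster 0 (1.86, 1.55 to 2.17). Galnt6 was lower in the KO library in 4 of the 5 clusters where it was measured, from -1.29 in cluster 2 to -1.79 in cluster 3, and stood at -0.47 (-0.77 to -0.18) in cluster 1. Whether these clusters differ from each other was not tested.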
